A study of Homo sapiens with 6 samples.

Results

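The genes described here encode proteins that choose and bind splice sites: the SR proteins and their relatives, the heterogeneous nuclear ribonucleoproteins (hnRNPs) with the polypyrimidine tract-binding proteins, the SF3A and SF3B subunits of the U2 small nuclear ribonucleoprotein (snRNP), and the U2AF pair. They were chosen by symbol (the SRSF, HNRNP, SF3A and SF3B names, with U2AF1, U2AF2, TRA2A, TRA2B, PTBP1, PTBP2, PTBP3, RBM39 and SON) and by a summed count of at least 60 over the 6 libraries, with pseudogenes left out. Of 60 rows with such names, 10 were pseudogenes and 1, HNRNPCL1, had a summed count of 4, which left 49 of the 29476 genes of the table. The members just inside the minimum were SRSF12 with a summed count of 305 and U2AF1 with 698. The minimum used the sum over both treatments and no difference between them, but the gene families themselves were selected with earlier results of these data known, so counts over them are descriptions. All 49 passed the low-count filter of the test. The pattern does not match HNRNPA2B1, which is given with the other splicing genes.

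RNA sequencing had been done on A549 cells, a human lung adenocarcinoma line, in 2 groups of 3 libraries, numbered 4, 5 and 6 in each. One group had received a negative control siRNA (si-NC) and the other an siRNA against NORAD (si-NORAD), a long noncoding RNA that binds Pumilio proteins. Both were grown in RPMI-1640 and transfected with the same lipid reagent. Every library comes from this 1 line. The labels do not say whether libraries of a group were separate cultures, so p-values rest on a spread that may be technical. No source used here gives the siRNA sequences or the time after transfection. The series names epithelial-mesenchymal transition, and the question put to these genes is whether their transcripts differ with the siRNA.

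As background, SR proteins carry arginine- and serine-rich tails, bind enhancer sequences in exons and recruit the splicing machinery, and several regulate their own transcripts through exons that send the RNA to nonsense-mediated decay. hnRNPs coat nascent transcripts and often oppose SR proteins at weak exons, and many also act in RNA export, stability and translation. U2AF marks the polypyrimidine tract and the 3′ splice site, after which SF3A and SF3B anchor the U2 snRNP at the branch point. The balance among these proteins is known to set exon choice in carcinoma cells, including exons that switch during epithelial-mesenchymal transition.

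The libraries held between 19332334 and 32760606 counts, of which the 49 genes took 1.47% to 1.51%. NORAD, the targeted gene, measured 549.5, 461 and 423 CPM (counts scaled to a common library size) in si-NC 4, 5 and 6 and 359, 372 and 399.6 CPM in si-NORAD 4, 5 and 6, a log2 fold change of -0.34 (SE 0.11) with an edgeR adjusted p = 0.196. The groups did not overlap for NORAD, but the difference did not pass the test. The fitted change was -21.1%, and for this gene si-NC 4 was the control furthest from the si-NORAD libraries. The 9 epithelial and A549 markers were all at 1 CPM or more, with summed levels of 11173 to 15611 CPM in si-NC and 12045 to 12149 CPM in si-NORAD. Marker sums were 3.45 to 4.92 CPM for leukocytes, 3.90 to 5.95 CPM for endothelium, 8.78 to 11.996 CPM in si-NC and 12.2 to 13.1 CPM in si-NORAD for fibroblasts and 2.71 to 3.95 CPM for the retina, a tissue word that stands in the extraction protocol. The si-NC libraries differed from one another more than the si-NORAD libraries did. Chi-square per gene, which sets the difference of 2 libraries against read sampling, was taken over tested genes with enough counts. It was 25.7 for si-NC 4 and si-NC 5, 51.5 for si-NC 4 and si-NC 6 and 11.9 for si-NC 5 and si-NC 6. Between si-NORAD libraries it was 2.36 to 2.52, so si-NC 5 and si-NC 6 differed from each other too. For the 49 genes the median coefficient of variation was 9.15% over si-NC and 2.05% over si-NORAD, and the si-NC spread was the wider for 44 of 49 genes (89.8%, beside 80.2% of all tested genes). Library si-NC 4 stood further from si-NC 5 and si-NC 6 than these did from each other. It lay nearest to the si-NORAD mean for 34 of the 49 genes (69.4%, beside 62.8% of all tested genes). Results are therefore also given without si-NC 4 and with si-NC 4 as the only control. With that lone control no test is given, since only si-NORAD then has replicates.

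Per base of annotated exon, these were abundant messages. The scale for levels is FPKM, fragments scaled by exonic length and by the library's total, as deposited. That length is the union of a gene's annotated exons, so ranks and ratios between genes on this scale depend on the annotation. The median member had a mean of 38.2 FPKM over the 6 libraries, above 92.9% of the tested genes, whose median was 3.98 FPKM. HNRNPA1, which shuttles between nucleus and cytoplasm and represses exons, was the most abundant, at 299, 331 and 349.8 FPKM in si-NC and 314, 312 and 310.5 FPKM in si-NORAD (libraries in the order 4, 5, 6 here and below). Its 3 si-NORAD values lay inside the si-NC range. HNRNPK, a poly(C)-binding protein, followed at a mean of 176 FPKM, HNRNPF, which binds G-rich runs, at 155, HNRNPAB at 139, SF3B5 at 133 and HNRNPC at 124 FPKM. These 6 genes were at 100 FPKM or more, 37 lay between 10 and 100 FPKM, and 6 were under 10 FPKM. The low group held SRSF4, SRSF8 and HNRNPLL at 8.47, 9.45 and 9.15 FPKM, the neuronal PTBP2 at 1.40 FPKM, SRSF12 at 0.488 FPKM and U2AF1 at 0.448 FPKM. Within the SR proteins the order ran from SRSF2 at 54.3 and SRSF3 at 50.1 FPKM down to SRSF12. The ranges of SRSF2 and SRSF3 over the 6 libraries overlapped, as did those of TRA2A, RBM39 and TRA2B. In the SF3 complex, SF3B5 and SF3B6 stood highest, and SF3A2 had the lowest mean at 20.7 FPKM, although its protein is assembled with the others into 1 particle.

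**Figure D1:**
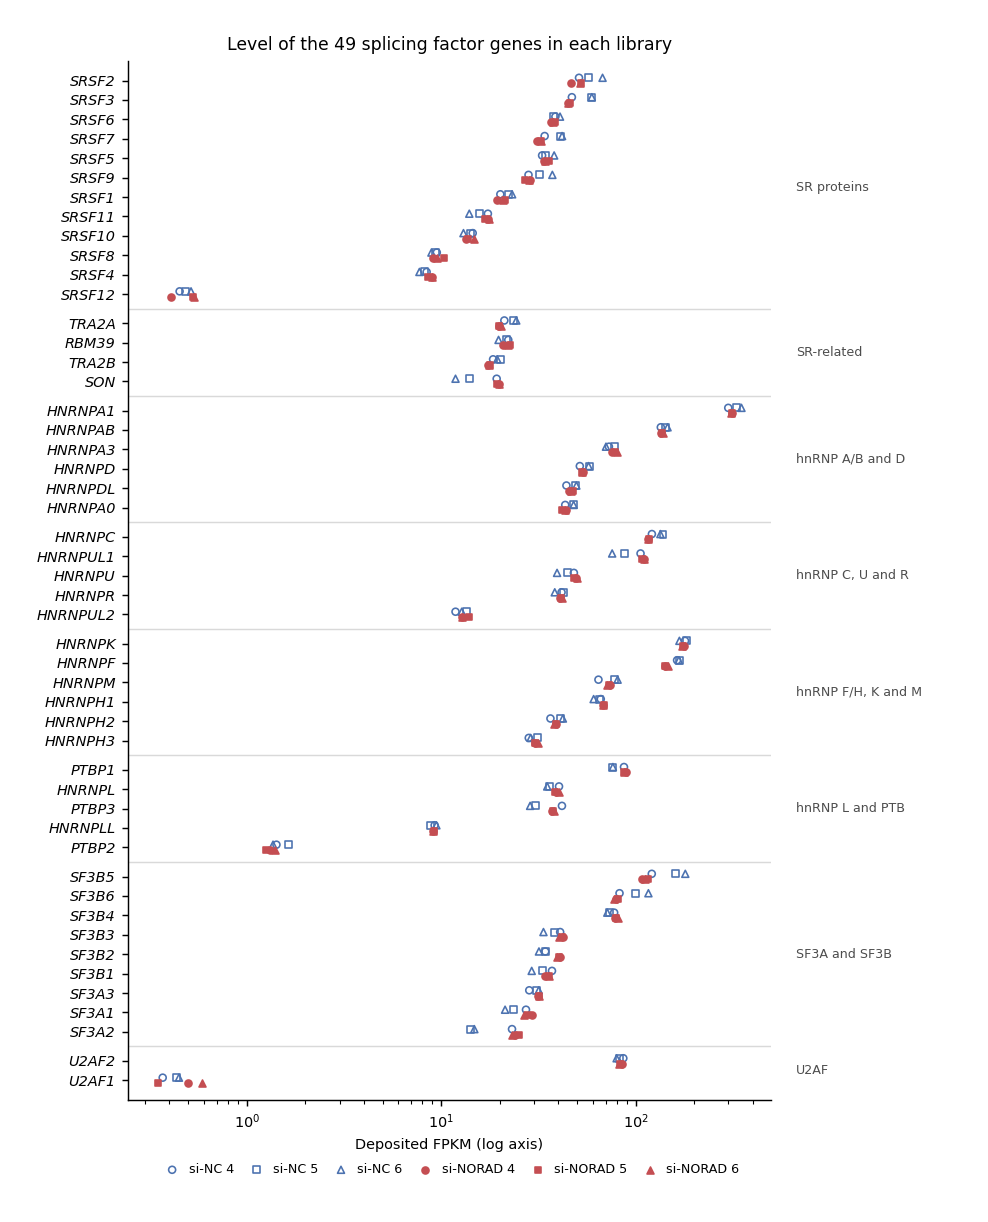
Deposited FPKM (x axis, log scale) of each of the 49 genes (rows, grouped by role and sorted by mean) in the 3 si-NC libraries (open blue symbols) and the 3 si-NORAD libraries (filled red symbols). HNRNPA1 is highest at a mean of 319 FPKM, U2AF1 lowest at 0.448 FPKM, and the si-NC symbols are spread more widely than the si-NORAD symbols in most rows.

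None of the 49 genes passed the test between si-NORAD and si-NC. Counts were compared with edgeR's quasi-likelihood F test over 15515 genes, with Benjamini-Hochberg adjustment, and the threshold of 0.05 was one that 1 gene (0.00645% of those tested) and 0 of 49 members met. The lowest adjusted p among the members was 0.196. At an unadjusted p under 0.05 there were 13 of 49 members (26.5%), beside 21.6% of all tested genes. The count test DESeq2 called 2 members, HNRNPF and SF3B5, both lower in si-NORAD, out of the 47 to which it gave an adjusted p, beside 4.0% of all genes with one. With no low-count filter edgeR called 6 of 49, SF3A2 and SON as higher and SF3B5, SF3B6, SRSF3 and SRSF7 as lower. It called 6.56% of all 29476 genes, low-count rows included. Of the 15515 genes that pass the filter, as all members do, it called 1916, about the same share as of the members. Without si-NC 4 it called 27 of 49 (55.1%), 6 higher and 21 lower, beside 39.3% of all genes.

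The fitted fold changes, given throughout as log2 of si-NORAD over si-NC, were small. Their median was -0.05, beside 0.01 over all tested genes, with 30 genes below 0 and 19 above. That balance depended on the scaling of the libraries: with total counts in place of TMM factors it was 23 below and 26 above, and the median of all tested genes moved to 0.066. The 7 members that changed sign with that scaling were SRSF10, SRSF12, RBM39, HNRNPR, HNRNPUL2, SF3A3 and U2AF2, and HNRNPH3 did so with the RLE factors. The lowest fold change was that of SF3B5 at -0.53 and the highest that of SF3A2 at 0.42, both parts of the U2 snRNP. In 4 genes every si-NORAD library was above every si-NC library in CPM (SF3A2, SF3B2, HNRNPUL1 and HNRNPU), where 12.7% of all tested genes were, and in 13 every si-NORAD library was below (SF3B5, HNRNPF, SRSF7, SRSF3, SF3B6, TRA2A, HNRNPC, TRA2B, PTBP2, SRSF6, HNRNPLL, HNRNPK and U2AF2), where again 12.7% were. Together these 17 made up 34.7% of the members, beside 25.4% of all genes. On the deposited FPKM scale, which has no TMM factor, 8 were higher and 8 lower with no overlap (16.3% each, beside 15.8% and 10.1% of all tested genes), and 12 genes kept the same direction on both scales. The standard errors ran from 0.069 to 0.20 with a median of 0.089, beside 0.128 for all tested genes. The 95% interval lay inside a 1.25-fold change in either direction for 25 members, inside 1.5-fold for 43 and inside 2-fold for all 49. By comparison, 22.5%, 59.0% and 86.9% of all tested genes had intervals inside these bounds. These intervals are those of the main fit, and some alternative fits fell outside them, as for HNRNPU at -0.23 with the length trend removed.

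**Figure D2:**
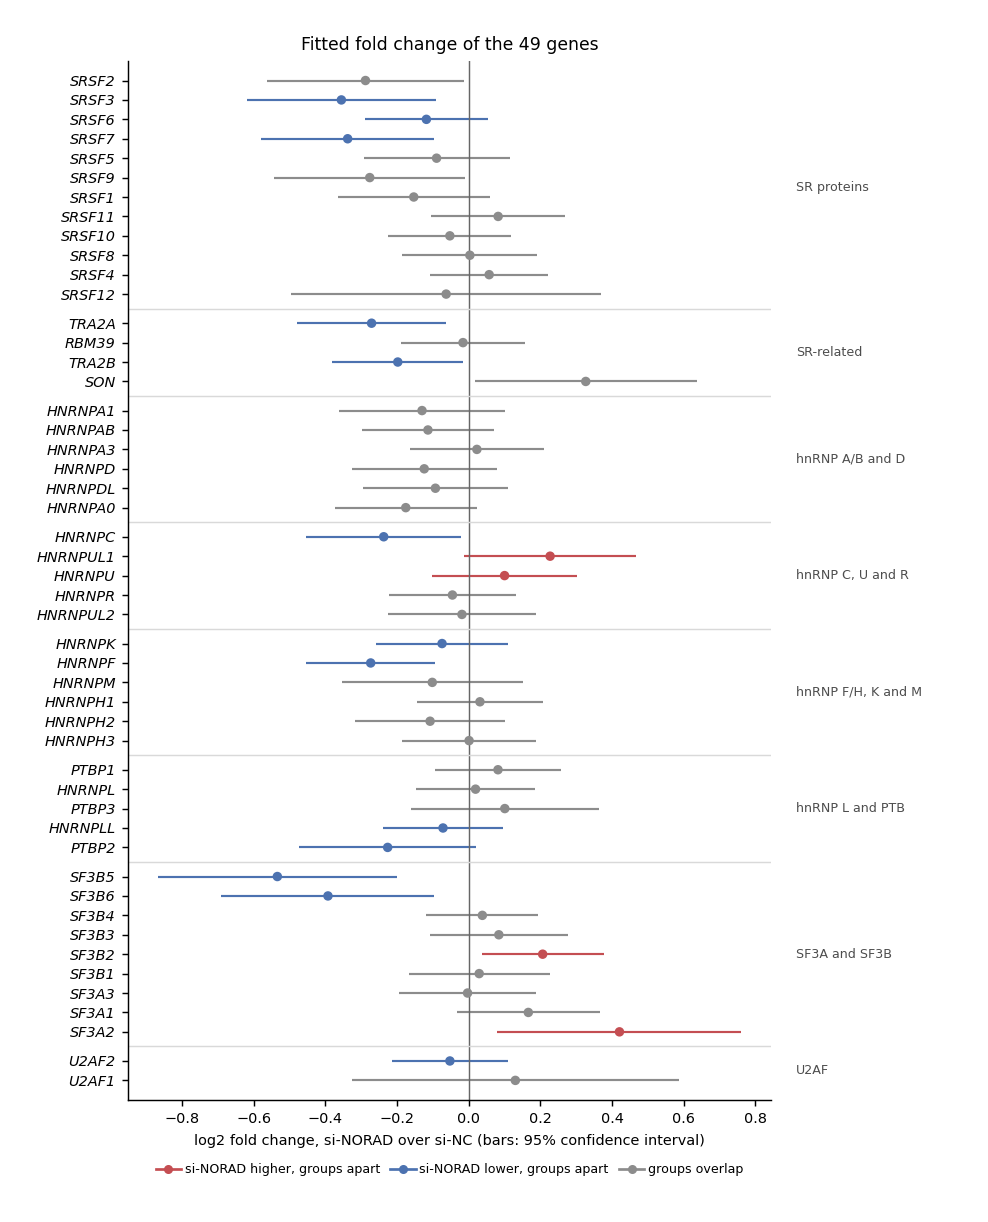
Fitted log2 fold change of si-NORAD over si-NC (x axis) for each of the 49 genes (rows, by role), with bars for the 95% confidence interval. Colours mark genes whose groups did not overlap in CPM, 4 higher (red) and 13 lower (blue), and the remaining 32 (grey) overlapped. SF3B5 at -0.53 and SF3A2 at 0.42 stand at the ends.

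Among the 12 SR proteins, 9 fold changes were below 0 and 3 above, or 7 and 5 with total-count scaling, with a median of -0.10. Of these, 4 had an unadjusted p under 0.05 (SRSF2, SRSF3, SRSF7 and SRSF9), all below 0 (33.3%, beside 21.6% of all tested genes), and 3 had groups that did not overlap (SRSF3, SRSF6 and SRSF7; 25.0%, beside 25.4%). SRSF3, the smallest SR protein and a factor in splicing, export and polyadenylation, had the highest CPM of the family. It measured 328, 438 and 442 CPM in si-NC and 314, 319 and 312 CPM in si-NORAD. Every si-NORAD value was below every si-NC value, yet si-NC 4 lay much closer to the si-NORAD libraries than to si-NC 5 and si-NC 6. The fold change was -0.36 (SE 0.12, 95% interval -0.62 to -0.092, edgeR adjusted p = 0.196). SRSF7, the SR protein with a zinc knuckle, which acts in export beside SRSF3, followed the same order of libraries, at 135, 173 and 177 CPM in si-NC and 124, 129.6 and 129.7 CPM in si-NORAD. Its fold change was -0.34 (SE 0.11, edgeR adjusted p = 0.196). SRSF2, a nuclear speckle protein that binds exonic enhancers and does not shuttle, measured 151, 179 and 213 CPM in si-NC and 137, 155 and 152 CPM in si-NORAD. Here the groups overlapped, since si-NC 4 fell below both si-NORAD 5 and si-NORAD 6, and the fold change was -0.29 (SE 0.12, edgeR adjusted p = 0.222). SRSF9 was at -0.28, SRSF1, a proto-oncogenic exon activator, at -0.15, SRSF6 at -0.12 and SRSF5 at -0.090. SRSF10 and SRSF12 were at -0.053 and -0.063. SRSF8, SRSF4 and SRSF11 were at 0.0033, 0.057 and 0.082. Without si-NC 4, edgeR called 7 of the 12 (58.3%, beside 39.3% of all genes in either direction). They were SRSF1, SRSF2, SRSF3, SRSF5, SRSF6, SRSF7 and SRSF9, all lower. The exons of SRSF2 overlap those of MFSD11 on the opposite strand, whose counts were 10% of those of SRSF2. SRSF9 overlaps GATC in the same way, at 29.4%. No source used here says whether counting used strand, so reads of such pairs cannot be told apart.

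The 4 SR-related genes split in direction, 3 below 0 and 1 above, or 2 and 2 with total-count scaling. TRA2A and TRA2B, paralogs that bind GAA-rich exon enhancers, were both lower. TRA2A measured 72.8, 86.8 and 89.2 CPM in si-NC and 68.6, 68.0 and 69.7 CPM in si-NORAD, and TRA2B measured 213, 249 and 238 CPM in si-NC and 202, 205 and 204 CPM in si-NORAD. In both genes the 3 si-NORAD libraries sat close together under the si-NC libraries, with si-NC 4 the lowest control. The fold changes were -0.27 (SE 0.092, edgeR adjusted p = 0.198) for TRA2A and -0.20 (SE 0.081, edgeR adjusted p = 0.217) for TRA2B. Per length TRA2B stood at 0.84 ± 0.040 (SD, n = 3) of TRA2A in si-NC and 0.88 ± 0.014 (SD, n = 3) in si-NORAD. The ratio within the pair thus differed by about the spread of the si-NC libraries. The lengths are those of all annotated exons, 11769 bases for TRA2B and 3516 for TRA2A, and in CPM TRA2B was the higher. SON, a large RS-domain protein that organises nuclear speckles and promotes splicing of weak introns, went the other way, with 249, 193 and 163 CPM in si-NC and 255, 248 and 255 CPM in si-NORAD. Library si-NC 4 was as high as the si-NORAD libraries, and the fold change was 0.33 (SE 0.14, edgeR adjusted p = 0.221). SON shares 275 exonic bases with GART on the opposite strand, whose counts were 86.7% of those of SON, and 307 with DONSON at 8.13%. RBM39, a U2AF2-related coactivator and the target of aryl sulfonamide degraders, measured 259, 269 and 246 CPM in si-NC and 245, 264 and 257 CPM in si-NORAD. Its groups overlapped throughout, at -0.016 (SE 0.076, 95% interval -0.19 to 0.16, edgeR adjusted p = 0.917), an interval inside a 1.25-fold change. Over the alternative fits its lowest fold change was -0.225, outside that interval.

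**Figure D3:**
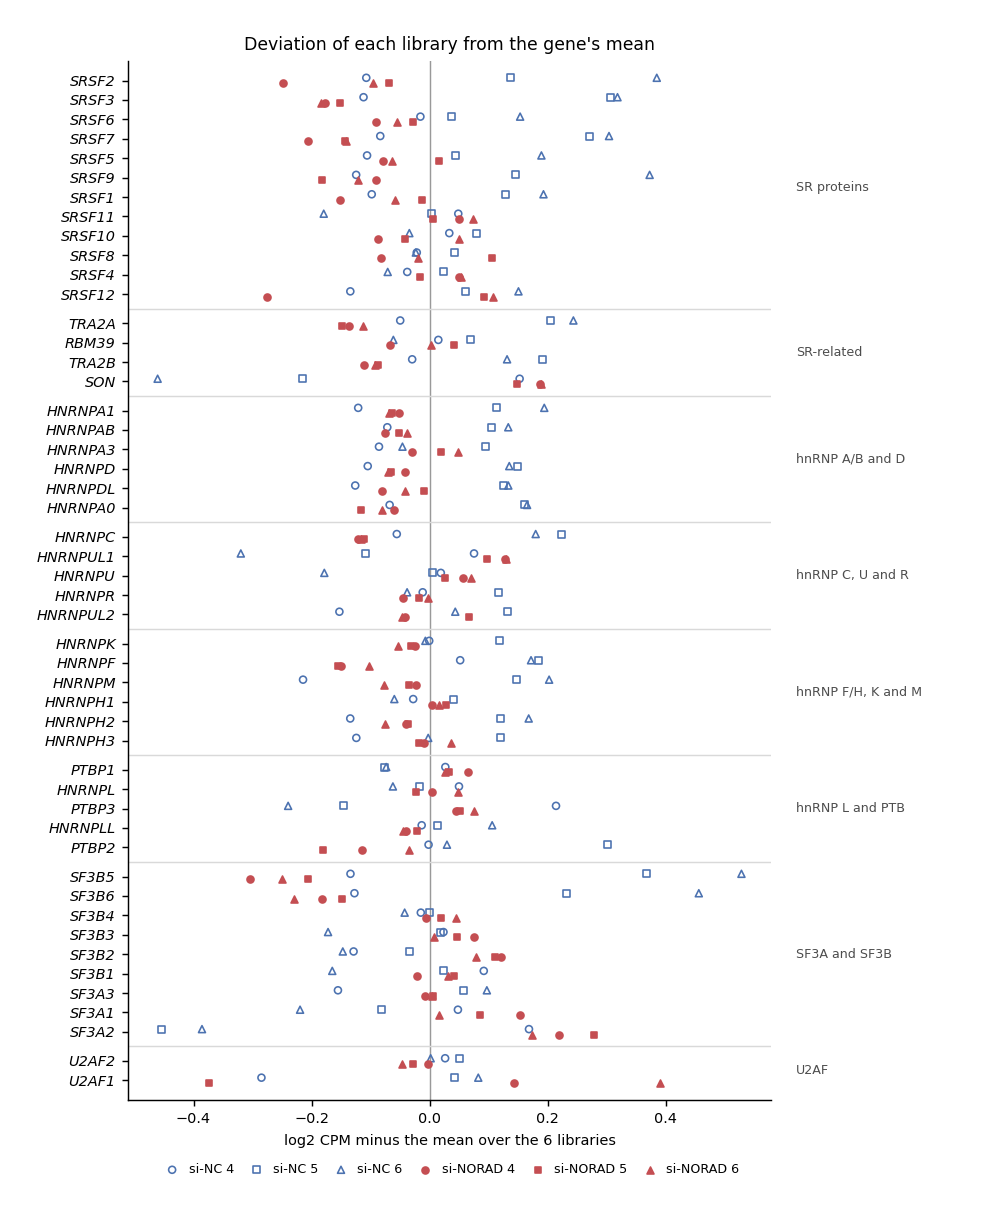
Log2 CPM of each library minus the gene's mean over the 6 libraries (x axis), for the 49 genes by role, with si-NC libraries as open blue and si-NORAD libraries as filled red symbols. The si-NORAD symbols cluster in nearly all rows, and the si-NC 4 circle lies nearest to them for 34 of the 49 genes.

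The hnRNP A/B and D genes, which encode exon repressors and AU-rich element binders, showed no group that stood clear of the other. Of 6 genes, 5 fold changes were below 0 with each of the 3 scalings, the median was -0.12, and 0 had an unadjusted p under 0.05. HNRNPA1 measured 1495, 1758 and 1859.6 CPM in si-NC and 1568, 1554 and 1549 CPM in si-NORAD, with the lowest and the highest values both in si-NC. Its fold change was -0.13 (SE 0.10, 95% interval -0.36 to 0.10, edgeR adjusted p = 0.453). HNRNPA0, a single-exon gene, was at -0.18, HNRNPD, also known as AUF1 and a regulator of RNA decay, at -0.12, HNRNPAB at -0.11, HNRNPDL at -0.093 and HNRNPA3 at 0.023. Without si-NC 4, edgeR called 5 of the 6 (83.3%, beside 39.3% of all genes in either direction), all lower. They were HNRNPA0, HNRNPA1, HNRNPAB, HNRNPD and HNRNPDL, at -0.20 to -0.17 for the last 2. With si-NC 4 as the only control those 2 were at 0.045 and 0.081. The table also lists 27 rows of HNRNPA1 pseudogenes, whose counts together were 1.01% of those of HNRNPA1.

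The hnRNP C, U and R genes divided by gene, 3 below 0 and 2 above, or 1 and 4 with total-count scaling. HNRNPC, which binds uridine tracts and masks cryptic exons, measured 869, 1054 and 1022 CPM in si-NC and 830.1, 836 and 833 CPM in si-NORAD, and the groups did not overlap. Its fold change was -0.24 (SE 0.10, edgeR adjusted p = 0.216). HNRNPU, a chromatin- and RNA-binding scaffold protein, had the highest CPM of this group, with 1062, 1052 and 926 CPM in si-NC and 1091, 1068 and 1101 CPM in si-NORAD. All 3 si-NORAD libraries were above si-NC, with si-NC 4 and si-NORAD 5 only a little apart, and the fold change was 0.10 (SE 0.089, 95% interval -0.10 to 0.30, edgeR adjusted p = 0.508). HNRNPUL1, its relative with a role in DNA end resection, was at 0.23 (SE 0.11, edgeR adjusted p = 0.248) with no overlap. The exons of HNRNPUL1 overlap TGFB1 on the opposite strand by 215 bases, and the counts of TGFB1 were 27.8% of those of HNRNPUL1. HNRNPR and HNRNPUL2 were at -0.045 and -0.019.

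In the hnRNP F/H, K and M group, HNRNPF was lower with 521, 571 and 566 CPM in si-NC and 453, 451 and 468 CPM in si-NORAD. Here si-NC 4 too stood above every si-NORAD library. The fold change was -0.27 (SE 0.079, 95% interval -0.45 to -0.094, edgeR adjusted p = 0.196), -0.32 without si-NC 4 and -0.19 with si-NC 4 alone. DESeq2 gave it an adjusted p of 0.0266. Its close relatives HNRNPH1, HNRNPH2 and HNRNPH3, which bind the same G runs, were at 0.031, -0.11 and 0.0011, with overlapping groups. HNRNPK, the most abundant by CPM here, measured 899.6, 977 and 896 CPM in si-NC and 885, 880.4 and 867 CPM in si-NORAD, with no overlap and a fold change of -0.074 (SE 0.082, edgeR adjusted p = 0.594). On the FPKM scale the HNRNPK groups did overlap. HNRNPM, known from the splicing switch of CD44 in epithelial-mesenchymal transition, was at -0.10 (SE 0.11, 95% interval -0.35 to 0.15, edgeR adjusted p = 0.592). The median of the 6 genes was -0.088, with 4 below 0, or 5 with the RLE factors.

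The hnRNP L and PTB genes, repressors that bind CA repeats and pyrimidine tracts, had a median of 0.02, with 3 of 5 above 0 under each of the 3 scalings, and 0 of 5 above 0 and a median of -0.064 with the length trend removed. PTBP1, the form of most dividing cells, measured 588, 547 and 548 CPM in si-NC and 604, 590.0 and 588 CPM in si-NORAD. The groups overlapped by the narrow margin of si-NC 4 over si-NORAD 6, and the fold change was 0.082 (SE 0.078, 95% interval -0.094 to 0.26, edgeR adjusted p = 0.539). PTBP3 measured 338, 263 and 246 CPM in si-NC and 300.2, 301 and 307 CPM in si-NORAD, with si-NC 4 above and si-NC 5 and si-NC 6 below every si-NORAD library, and its fold change was 0.10 (SE 0.12, edgeR adjusted p = 0.609). Its direction depended on the control taken, at 0.25 without si-NC 4 and -0.16 with si-NC 4 alone. PTBP2, the paralog that neurons use and that PTBP1 keeps low by exon skipping and decay of its message, measured 18.04, 22.3 and 18.4 CPM in si-NC and 16.7, 15.9 and 17.6 CPM in si-NORAD. All 3 si-NORAD values were below the si-NC values in CPM, while the FPKM values overlapped, and the fold change was -0.23 (SE 0.11, 95% interval -0.47 to 0.021, edgeR adjusted p = 0.260). Per length PTBP1 exceeded PTBP2 by 54.4 ± 7.63-fold (SD, n = 3) in si-NC and 66.7 ± 3.63-fold (SD, n = 3) in si-NORAD, and PTBP3 by 2.41 ± 0.30-fold and 2.35 ± 0.057-fold. HNRNPL was at 0.019, and HNRNPLL, the regulator of CD45 exons in lymphocytes, at -0.072.

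The 9 SF3A and SF3B genes held both ends of the range, although their products form 1 particle. Fold changes were above 0 for 6 and below 0 for 3, or 7 and 2 with total-count scaling and 4 and 5 with the length trend removed, with a median of 0.04. SF3B5 and SF3B6, the smallest SF3B proteins among the members, of which SF3B6 lies beside the branch-point adenosine, were both lower. SF3B5 measured 82.2, 116 and 130.1 CPM in si-NC and 73.1, 78.2 and 75.9 CPM in si-NORAD, with a fold change of -0.53 (SE 0.15, 95% interval -0.87 to -0.20, edgeR adjusted p = 0.196). SF3B6 measured 97.0, 124 and 145 CPM in si-NC and 93.3, 95.6 and 90.3 CPM in si-NORAD, with a fold change of -0.39 (SE 0.13, edgeR adjusted p = 0.198). In both, si-NC 6 was the highest library and si-NC 4 lay just above the si-NORAD libraries. SF3A2, a zinc finger subunit of SF3A, was higher, with 71.1, 46.2 and 48.4 CPM in si-NC and 73.7, 76.7 and 71.4 CPM in si-NORAD. Its si-NC 4 value was almost that of si-NORAD 6, and the fold change was 0.42 (SE 0.15, 95% interval 0.080 to 0.76, edgeR adjusted p = 0.202). SF3B2, a scaffold that contacts the pre-mRNA near the branch point, measured 329, 352 and 325 CPM in si-NC and 392, 389 and 380.1 CPM in si-NORAD. For SF3B2 all 3 si-NC libraries were well under si-NORAD, and its fold change of 0.21 (SE 0.075, 95% interval 0.037 to 0.38, edgeR adjusted p = 0.203) was 0.19 without si-NC 4 and 0.23 with si-NC 4 as the only control. SF3B3, the highest of the complex by CPM, measured 498, 496 and 435 CPM in si-NC and 517, 506 and 493 CPM in si-NORAD with overlapping groups and a fold change of 0.084 (SE 0.086, edgeR adjusted p = 0.561). SF3B1, the subunit mutated in myeloid and other cancers, was at 0.029 (SE 0.087, 95% interval -0.17 to 0.23, edgeR adjusted p = 0.859). SF3A1, SF3B4 and SF3A3 were at 0.17, 0.038 and -0.0031. Per length SF3A2 stood at 0.12 ± 0.061 (SD, n = 3) of SF3B5 in si-NC and 0.22 ± 0.0075 (SD, n = 3) in si-NORAD. The exons of SF3A2 overlap 398 bases of PLEKHJ1 on the opposite strand, whose counts were 31.7% of its own.

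The promoters of SF3B5 and SF3A2, the members at the 2 ends of the range, are shown because they encode partners in 1 complex and yet had opposite signs. Each window runs from 250 bases before to 50 after the annotated start, taken from RefSeq on GRCh38.p14, with matches to 6 promoter motifs in capitals. The motifs searched on both strands were GGGCGG (Sp1 and KLF factors), CCAAT (NF-Y), CCGGAAG (ETS factors), TGACGTCA (CREB), GCGCATGC (NRF1) and TATAAA. SF3B5, a gene with 1 exon at chr6:144094881-144095573, minus strand, has the window chr6:144095524-144095823, minus strand, and SF3A2, at chr19:2236504-2248679, plus strand, has chr19:2236574-2236873, plus strand.
SF3B5: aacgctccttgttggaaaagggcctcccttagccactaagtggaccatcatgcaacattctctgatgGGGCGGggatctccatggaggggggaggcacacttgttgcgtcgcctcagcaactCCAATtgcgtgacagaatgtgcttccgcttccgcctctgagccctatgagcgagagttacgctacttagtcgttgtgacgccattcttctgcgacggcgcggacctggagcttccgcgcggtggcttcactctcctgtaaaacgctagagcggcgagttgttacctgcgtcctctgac
SF3A2: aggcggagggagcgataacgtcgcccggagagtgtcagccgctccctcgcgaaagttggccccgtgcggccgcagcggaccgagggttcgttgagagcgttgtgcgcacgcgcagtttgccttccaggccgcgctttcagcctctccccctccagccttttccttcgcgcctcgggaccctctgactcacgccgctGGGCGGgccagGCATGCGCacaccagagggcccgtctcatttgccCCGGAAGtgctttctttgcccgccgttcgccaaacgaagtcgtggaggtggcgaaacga
The SF3B5 window had a GC content of 57.3% and 22 CpG pairs, with matches for Sp1 and NF-Y, and that of SF3A2 66.7% and 36 pairs, with matches for Sp1, ETS factors and NRF1. RefSeq windows were matched for 44 of the 49 genes (all but HNRNPA1, RBM39, SF3B3, SRSF2 and TRA2A), which gave 60 windows with a median GC content of 65.0% and 29 CpG pairs. Those of all tested genes had 64.7% and 25 pairs. GGGCGG was in 66.7% of the member windows and 65.2% of those of tested genes, CCAAT in 40.0% and 34.2%, CCGGAAG in 21.7% and 16.0%, GCGCATGC in 8.33% and 4.67%, TATAAA in 10% and 6.33%, and TGACGTCA in 0 and 2.68%. A match is a run of letters and no measure of binding.

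U2AF2, the large U2AF subunit that binds the polypyrimidine tract, measured 349, 355 and 343 CPM in si-NC and 342, 336 and 331 CPM in si-NORAD. The groups did not overlap in CPM, though they did in FPKM, and the fold change, which is above 0 with total-count scaling, was -0.052 (SE 0.072, 95% interval -0.21 to 0.11, edgeR adjusted p = 0.672). U2AF1, the small subunit that reads the AG of the 3′ splice site, was listed at 4.03, 5.06 and 5.20 CPM in si-NC and 5.42, 3.79 and 6.44 CPM in si-NORAD. Its groups overlapped, and the fold change was 0.13 (SE 0.20, 95% interval -0.33 to 0.59, edgeR adjusted p = 0.713). Per length U2AF2 exceeded U2AF1 by 200.3 ± 29.4-fold (SD, n = 3) in si-NC and 183 ± 51.2-fold in si-NORAD. This level of U2AF1 cannot be read as that of the gene. U2AF1 (chr21:43092956-43107587, minus strand) has a near-identical copy in GRCh38, U2AF1L5 (chr21:6484623-6499261), and 89.4% of the 100-base windows of U2AF1 transcripts also occur in transcripts of that copy. U2AF1L5 had 23 counts in all, so reads that match both may be in neither row.

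**Figure D4:**
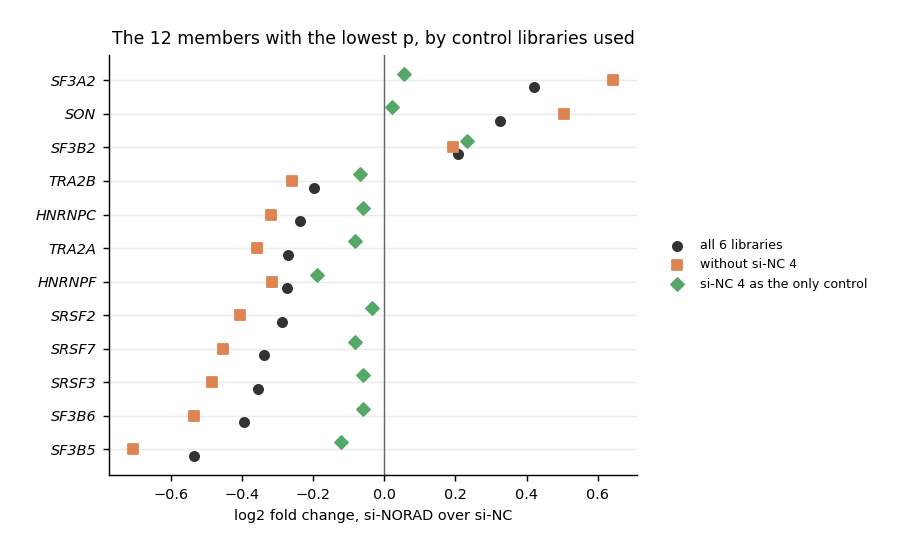
Fitted log2 fold change of si-NORAD over si-NC (x axis) for the 12 members with the lowest unadjusted p (rows), with all 6 libraries (black), without si-NC 4 (orange squares) and with si-NC 4 as the only control (green diamonds). SF3B5 moves from -0.71 to -0.12 between the latter choices, and SF3B2 from 0.19 to 0.23.

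The choice of control library set the size of most differences. Without si-NC 4 the median of the 49 genes was -0.09, and with si-NC 4 as the only control it was 0.02. Against si-NC 4 alone, fold changes ran from -0.19 (HNRNPF) to 0.37 (U2AF1), and 33 of the 49 were smaller in size than with all 6 libraries. The genes called as higher without si-NC 4 were SF3A2, SON, HNRNPUL1, PTBP3, SF3A1 and SF3B2, from 0.64 for SF3A2 to 0.19 for SF3B2. SF3B5, SF3B6 and SRSF3 were the lowest there, at -0.71, -0.54 and -0.48. Against si-NC 4 alone these were at -0.12, -0.058 and -0.059. Over the fits that left out 1 library each, SF3B2 ran from 0.18 to 0.24 and HNRNPF from -0.32 to -0.25, and both kept their sign against si-NC 4 alone, at 0.23 and -0.19. A lower level in bulk RNA can stand for fewer cells with the transcript or for less RNA per cell, which cannot be told apart here.

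Fold change followed exonic length among these genes as it did across the table. Spearman's rho between the fold change and the exonic length was 0.45 over the 49 genes and 0.38 over all 15515, given as a description, since genes share the libraries. The 16 shortest genes, of 693 to 4593 bases, had a median of -0.14, with 13 below 0. The 16 of middle length had -0.05, and the 17 longest, of 7309 to 22514 bases, 0.03. All tested genes, cut at 4593 and 7118 bases, had medians of -0.10, 0.04 and 0.15. The member medians were a little below these. The first and last of these ranges were open-ended, so they were not limited to the lengths of the members. SF3B5 at 693 bases and SF3B6 at 1197 bases are the shortest members, and SON at 13172 bases is among the longest. When the trend over length was removed from each library, 42 of the 49 genes were below 0, the median was -0.12 beside -0.03 for all tested genes, and 0 of the 49 passed the edgeR test, with 17 at an unadjusted p under 0.05 (34.7%, beside 21.7% of all tested genes). In that fit 12 members that had been above 0 turned below it, HNRNPU furthest at -0.23, and SF3B2 was at 0.041.

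**Figure D5:**
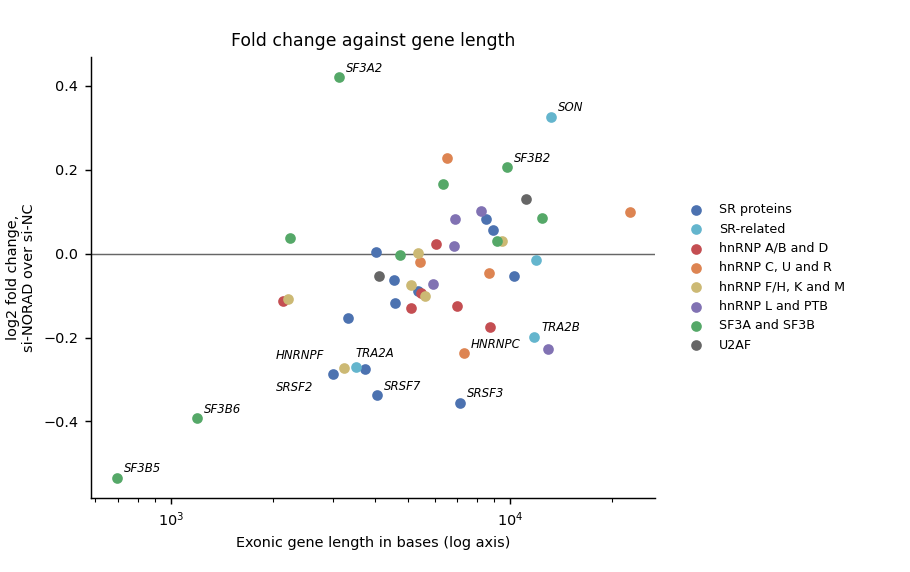
Fitted log2 fold change of si-NORAD over si-NC (y axis) against exonic gene length in bases (x axis, log scale) for the 49 genes, coloured by role, with the 12 of lowest unadjusted p named. The shortest genes, SF3B5 and SF3B6, lie lowest, and SF3A2, at 3134 bases, lies highest.

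Since NORAD binds Pumilio proteins, which recognise an 8-base element in 3′ UTRs, the longest annotated 3′ UTR of each gene was searched on the transcript strand for TGTANATA. At least 1 match was found in 16 of the 49 genes (32.7%, beside 29.6% of tested genes) and 2 or more in 6 (12.2%, beside 10.6%), namely HNRNPR, PTBP2, PTBP3, RBM39, SRSF1 and SRSF5. Sites of the most abundant gene, of the 2 genes among the 12 of lowest p that have one, and of the PTB family are shown, 1 for each gene (of the 3 in PTBP2 the first, and of the 4 in PTBP3 the last), with 10 bases on each side and the element in capitals (GRCh38, GENCODE 29).
HNRNPA1: atgtgttattTGTACATAgattcttttg
HNRNPC: aattctgaagTGTATATAcctccatgtt
SF3B2: agacctgtttTGTAAATAaagctgtttc
PTBP1: gtaacaagggTGTAAATAtttataattt
PTBP2: tgtgcacacaTGTACATAcctcagacat
PTBP3: aagaaaatgcTGTAAATAtttgtaacaa
They lie at chr12:54285720-54285747, plus strand, for HNRNPA1, chr14:21210069-21210096, minus strand, for HNRNPC, chr11:66068856-66068883, plus strand, for SF3B2, chr19:812003-812030, plus strand, for PTBP1, chr1:96820522-96820549, plus strand, for PTBP2 and chr9:112218835-112218862, minus strand, for PTBP3. The 16 genes with a match had a median fold change of -0.03, from -0.24 for HNRNPC to 0.21 for SF3B2, and the 33 without one had -0.06. Across tested genes the medians were 0.07 with a match and -0.04 without. Fold change also rose with exonic length across tested genes (Spearman's rho 0.38). The genes with and without a match were not matched for length, and whether length accounts for the difference was not tested. A match is a description of letters and shows no binding.

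Among 94 other genes of the splicing pathway, 92 were tested. The others, ESRP1 and ESRP2, did not pass the low-count filter, so nothing is said of their change. Of the 92, 0 were called by edgeR, with 31 at an unadjusted p under 0.05 (33.7%, beside 21.6% of all tested genes), 7 called by DESeq2 (7.69% of the 91 with an adjusted p, beside 4.0%) and 58 called by edgeR without si-NC 4 (63.0%, beside 39.3%). The genes of the 2 rings that clasp spliceosomal RNAs had fold changes below 0 throughout. All 7 Sm ring genes were below 0 under each scaling, with a median of -0.54, 5 with si-NORAD lower and no overlap (12.7% of all tested genes were), 7 with an unadjusted p under 0.05 (21.6%), and 4 called by DESeq2 (4.0%). SNRPB, the core Sm B protein, measured 304, 438 and 476 CPM in si-NC and 275, 287 and 267 CPM in si-NORAD, a fold change of -0.56 (SE 0.15, edgeR adjusted p = 0.196). SNRPD2 measured 217, 325 and 369 CPM in si-NC and 209.8, 212 and 205 CPM in si-NORAD, a fold change of -0.54 (SE 0.17, edgeR adjusted p = 0.196). Both showed si-NC 4 near si-NORAD. All 7 LSM ring genes, which bind the U6 RNA, were also below 0 under each scaling, with a median of -0.40, among them LSM4 at -0.38 and LSM7 at -0.41. With si-NC 4 as the only control these medians were -0.06 and -0.03.

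The U1 snRNP genes were below 0 in 3 of 3 under each scaling, SNRPC at -0.41 and SNRNP70 at -0.11. With si-NC 4 as the only control their median was 0.048, with SNRPC at -0.12 and SNRNP70 at 0.10. Of 4 U2 snRNP genes whose symbols do not match the SF3 names, 3 were below 0, or 2 with total-count scaling. Among them SNRPB2 was at -0.31 and the helicase DHX15 at 0.012. Of the 10 tri-snRNP genes 7 were below 0, or 2 with total-count scaling and 5 with the length trend removed. The 2 highest of that list by CPM were PRPF8, at the core of the spliceosome, at 0.33 and the helicase SNRNP200 at 0.26 with overlapping groups, and against si-NC 4 alone they were at 0.019 and -0.060. In the PRP19 complex and among the helicases 5 of 10 were below 0, or 3 with total-count scaling, with PRPF19 at -0.037 and AQR at 0.29. The kinases, importers and coactivators of SR proteins had 11 of 15 above 0, or 13 with total-count scaling and 9 with the length trend removed. Their median of 0.12 was 0.017 with the length trend removed and 0.0011 with si-NC 4 as the only control. SRRM2, a very large speckle protein, measured 767, 482 and 387 CPM in si-NC and 802, 792 and 778 CPM in si-NORAD, a fold change of 0.54 (SE 0.21, edgeR adjusted p = 0.209), and the importer TNPO1 was at 0.13. Without si-NC 4 these were at 0.86 and 0.26, and with si-NC 4 as the only control at 0.045 and -0.089. Exon junction and decay genes were above 0 in 9 of 13, or 10 with total-count scaling and 7 with the length trend removed, with EIF4A3 at -0.29 and CASC3 at 0.26. Of 23 tested regulators of other families 12 were below 0, or 7 with total-count scaling. HNRNPA2B1, the partner of HNRNPA1, measured 1519.6, 1739 and 1657 CPM in si-NC and 1593, 1602 and 1647 CPM in si-NORAD, a fold change of -0.022 (SE 0.090, edgeR adjusted p = 0.902), and NONO was at -0.0086.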

How the data were processed

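Counts of reads per gene and FPKM values came from 1 deposited table of 29476 genes, made by the authors with FastQC, HISAT2 and HTSeq 0.6.1 on GRCh38, per the submitters' processing notes. The counts deposited by the authors carry no normalization. The FPKM values deposited by the authors equal count over exonic length and library total (100% of values within 0.1%). Ribosomal RNA had been depleted and a directional kit used, per the labels' protocols. No source used here gives the strand setting of counting or the treatment of reads that match several genes, which bears on U2AF1 and on genes with pseudogenes. 0 columns of other samples were present.

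Counts were tested with edgeR 4.0.16 (R 4.3.3): filterByExpr, TMM scaling, robust quasi-likelihood F test, two-sided, no covariate, on all 15515 genes passing the filter, with Benjamini-Hochberg adjustment and a threshold of 0.05. CPM uses TMM-scaled library sizes. The steps were tested on simulated data. Those data had the same dispersion in both groups and no library apart, so that test does not cover the wider si-NC spread seen here. Alternatives were RLE scaling, no filter, DESeq2 1.42.0, the replicate number as a block, a loess length trend (span 0.3) removed, each library left out in turn, si-NC 4 as the only control, and, added after seeing the data, total-count scaling. Gene models are GENCODE 29. The members and lists were chosen with earlier results of these data known. Named in full are the 12 members with the lowest p, the highest CPM of each role, the PTBP, TRA2 and U2AF families, the 2 highest of each list of other splicing genes, HNRNPA2B1 and NORAD.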

Additional observations from a re-analysis of the deposited data

How the results depend on the processing

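The count of 0 members and 0 other splicing genes called held with RLE scaling, the replicate block, the length trend removed and total-count scaling (added after seeing the data). It was 6 and 23 with no low-count filter, 2 and 7 with DESeq2, and ran from 0 to 27 and from 0 to 58 over the leave-one-out fits, the highest without si-NC 4 and 0 without any other library. The median of the members, -0.05, was -0.12 with the length trend removed, 0.0080 with total-count scaling and 0.016 with si-NC 4 as the only control. The cause was not tested. Of the 49 members, 21 kept their sign under each of the 13 alternatives. The other 28 had a main value of at most 0.15 in size, and took the opposite sign in the following. With RLE scaling this was HNRNPH3 -0.00092. With no filter it was SRSF8 -0.00056 and HNRNPH3 -0.0028, and with DESeq2 SRSF8 -0.0047 and HNRNPH3 -0.0063. The replicate numbers did not pair the libraries (same-number correlations of -0.029, -0.020 and -0.065), and the replicate block gave 0 calls with a median of -0.05 and turned SF3A3 0.0012. With the length trend removed the values were SRSF11 -0.042, SRSF4 -0.083, HNRNPA3 -0.036, HNRNPU -0.23, HNRNPH1 -0.13, HNRNPH3 -0.034, HNRNPL -0.064, PTBP1 -0.0037, PTBP3 -0.011, SF3B1 -0.11, SF3B3 -0.13 and U2AF1 -0.069. Total-count scaling gave SRSF10 0.0080, SRSF12 0.00044, RBM39 0.045, HNRNPR 0.016, HNRNPUL2 0.045, SF3A3 0.061 and U2AF2 0.0081. With si-NC 4 as the only control they were SRSF1 0.019, SRSF11 -0.0057, SRSF12 0.092, SRSF5 0.063, HNRNPA1 0.059, HNRNPAB 0.016, HNRNPD 0.045, HNRNPDL 0.081, HNRNPUL2 0.14, HNRNPH2 0.084, HNRNPM 0.17, HNRNPL -0.040, PTBP3 -0.16, SF3A3 0.16 and SF3B1 -0.076. Over the leave-one-out fits the ranges were HNRNPA3 -0.015 to 0.077, HNRNPH3 -0.060 to 0.063, HNRNPL -0.0084 to 0.048, HNRNPR -0.077 to 0.0017, HNRNPUL2 -0.097 to 0.044, RBM39 -0.052 to 0.014, SF3A3 -0.078 to 0.044, SF3B1 -0.043 to 0.083, SRSF12 -0.14 to 0.068, SRSF8 -0.051 to 0.044 and U2AF1 -0.033 to 0.31. At these depths 1 count is 0.030 to 0.051 CPM. Low counts limit the precision of SRSF12, with 43 to 61 counts a library, and of U2AF1, with 82 to 181. For U2AF1, reads that match its copy may also be missing from the count.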

Other observations

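The pseudogene rows left out by the rule carried few reads. HNRNPCP2 had 884 counts over the 6 libraries, HNRNPCP1 163 and HNRNPLP2 128, and the other 7 had 9 or fewer. The 4 rows named as HNRNPC pseudogenes together had 0.839% of the counts of HNRNPC, from 0.777% to 1.003% in si-NC and from 0.767% to 0.840% in si-NORAD. The 27 HNRNPA1 pseudogene rows had 0.954% to 1.02% of its counts in si-NC and 0.985% to 1.06% in si-NORAD. No source used here says how reads shared between a gene and its pseudogenes were assigned.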
